A study of Mus musculus with 4 samples.

Results

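The amino acid response genes described here are 36 of the 31053 genes in the deposited tables, chosen by symbol: 9 stress factors around the transcription factor ATF4, 9 enzymes of serine, asparagine and one-carbon metabolism, 5 amino acid transporters and 13 cytosolic tRNA synthetases. All 36 symbols were found and all 36 passed the filter on low counts. The study compared bone marrow (BM) macrophages that had engulfed apoptotic prostate cancer cells with BM macrophages that had not, by single-cell RNA sequencing of 4 libraries, 1 of each group in each of 2 independent experiments. In both groups the cells came from C57BL/6J mice, males of 4 to 6 weeks by the methods and 4 weeks by the single-cell figure legend. The cells were grown with M-CSF, the growth factor that drives macrophage differentiation. Efferocytic BM macrophages were sorted as F4/80+CFSE+ cells after 16 to 18 h with apoptotic RM1 cells, a murine prostate cancer line transformed with Ras and Myc, killed with UV light and labeled with the dye CFSE. Non-efferocytic BM macrophages were sorted as F4/80+ cells only. By the study's scheme they were cultured without RM1 cells. The gate on CFSE takes in cells with dye inside or bound at the surface, and mRNA of engulfed RM1 cells was not told apart from that of the macrophage.

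When an amino acid runs short, uncharged tRNA activates the kinase GCN2, which phosphorylates the initiation factor eIF2. Global translation then slows while ATF4 is translated more efficiently, and ATF4, paired with C/EBP factors, binds composite C/EBP-ATF elements in genes for amino acid synthesis, amino acid import and tRNA charging. The same arm is reached from stress of the endoplasmic reticulum through PERK, and ATF4 activity is therefore governed in large part above the level of its mRNA. Macrophages that digest a whole cell take up a large load of amino acids through the lysosome.

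The composite element was searched for as TGATGNAA on either strand, which on the opposite strand reads TTNCATCA, in the RefSeq promoter windows of GRCm38.p6 that run from 250 bases before to 50 bases after each gene start. A window was found for 28 of the 36 genes. Of these, 9 (32.1%) held a match, compared with 4.51% of 27025 genes with a window. The 36 genes were chosen as genes of this response, so the shares are a description and not a test. The 9 were Aars, Asns, Chac1, Gars, Iars, Nupr1, Tars, Trib3 and Yars, of which 5 are among the 7 synthetases with a window and 1 is among the 9 enzymes. The 6 sequences below show the element in genes of 3 roles. In the test described further on, Asns, Aars and Yars were called higher and Nupr1 lower, while Trib3 and Chac1 did not pass. Each sequence has a match in capitals with 11 bases on either side, written 5′ to 3′ on the strand of the gene.
Asns, chr6:7693214-7693243, minus strand: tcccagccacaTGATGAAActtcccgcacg
Trib3, chr2:152344028-152344057, minus strand: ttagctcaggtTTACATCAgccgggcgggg
Chac1, chr2:119351038-119351067, plus strand: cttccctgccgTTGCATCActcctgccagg
Nupr1, chr7:126625562-126625591, minus strand: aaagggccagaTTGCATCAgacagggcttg
Aars, chr8:111033840-111033869, plus strand: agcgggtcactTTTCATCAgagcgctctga
Yars, chr4:129189895-129189924, plus strand: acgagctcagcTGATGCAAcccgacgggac
The Asns and Yars matches read forward along the gene and the others in reverse. A match is a stretch of letters, not a measured binding site, and genes with and without a match were both found among those that rose and those that did not.

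The kept cells numbered 8280 and 6695 in Experiment 1 (non-efferocytic, efferocytic) and 13411 and 8408 in Experiment 2, and held between 101216659 and 155224183 UMIs per library. A UMI is a molecular barcode, so each count is 1 captured mRNA molecule. Efferocytic cells held more of them, with a mean of 18670 and 18462 UMIs per cell against 12224 and 10316. The medians were 17171 and 17475.5 against 11146 and 9600. Shallow barcodes entered these values. In Experiment 2 a cluster with a median of 1154 UMIs held 1542 non-efferocytic and 14 efferocytic barcodes, and 1 with 1549.5 UMIs held 760 and 86. A cluster with a median of 1380 UMIs went the other way, at 28 and 193. A cut at 3497 UMIs, set from the deepest barcodes, would keep 10615 of the 13411. Macrophage markers were present in every library, and their summed level was 32999 and 25057 CPM in the efferocytic against 41255 and 35502 CPM in the non-efferocytic libraries, where CPM is UMIs scaled to a library total of 1000000. Of the other marker lists, all 9 neutrophil genes and 8 of the 15 genes of the RM1 list were lower in efferocytic libraries. Of the 14 cycling cell genes 8 were higher. The neutrophil sum was 718 to 959 CPM against 3067 to 3378 CPM, and the cycling sum 268 to 367 against 249 to 251 CPM. The RM1 list summed to 67.8 to 81.0 against 186 to 210 CPM, with Krt8 at 0 in both libraries of Experiment 1. It was thus higher in cells that by the scheme were cultured without RM1 cells, and does not measure RM1 mRNA here. Its highest sums, 14929 and 14892 CPM, were in clusters led by Col1a1, with cells of both groups. A cluster of Experiment 2 led by Krt18 and Krt8 had 10019 CPM. All 4 monocyte genes, 2 of the 3 dendritic cell genes tested, 1 of the 4 lymphocyte genes tested and 5 of the 10 macrophage genes were also lower, and 1 macrophage gene (Cd68) was higher; the monocyte sum was 15.4 to 25.7 against 67.8 to 76.6 CPM. The part of these cells in the differences below was tested only by leaving cells out. Pairs of libraries shared 14 to 23 cell barcodes, apart from 118 between the libraries of Experiment 2 (0.880% and 1.40% of their cells).

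Across the 36 genes, 21 rose in efferocytic BM macrophages, 4 fell and 11 did not pass the test (edgeR on UMIs summed per library, with the experiment as a block). Among all 13869 genes tested, 19.9% were called higher and 19.0% lower, and the median log2 fold change was 0.36 over the 36 genes against -0.02 over all genes. The roles did not move as a unit. Of the enzymes 8 of 9 rose, with a median log2 fold change of 0.60, of the synthetases 10 of 13 (median 0.36) and of the transporters 2 of 5 (median 0.15). None of these 27 genes was called lower, by edgeR or by DESeq2, and 0 of them had an unadjusted p under 0.05 in that direction in either. Of the 9 stress factors 1 rose and 4 fell, with a median of -0.11. In 26 genes both efferocytic libraries lay above both non-efferocytic libraries, as in 33.7% of all genes, and in 3 genes both lay below (34.8%). DESeq2 called 16 higher and 2 lower (14.2% and 10.2% of all genes), and edgeR without the block 8 and 2 (9.27% and 7.74%). The calls that remained without the block were those of Atf5, Asns, Shmt2, Mthfd1l, Slc7a1, Slc38a2, Aars and Yars, higher, and Sesn2 and Ddit4, lower; the other 15 were lost, with adjusted p between 0.05032 and 0.282. With 10% of free RNA removed, 4 were called higher and 3 lower of 35 tested, shares near those of all genes in that fit (10.5% and 8.16%), with a median of 0.33. The 4 were Asns, Slc7a1, Aars and Yars, and the other calls of a rise were lost there.

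The cycling sum given above was higher in the efferocytic libraries, and the counts were smaller in cells without a UMI of the cycling list, which are also fewer. Such cells were 959 of 6695 and 825 of 8408 efferocytic cells, and 2217 of 8280 and 4675 of 13411 non-efferocytic cells. A cell with few UMIs is more likely to hold none of the list. This choice therefore mixes cell cycle with depth, and the 2 were not told apart. In these cells 7 genes were called higher and 2 lower of 34 tested, beside 12.1% and 10.8% of all genes. The median log2 fold change was 0.24. The 7 were 3 enzymes, 3 synthetases and 1 transporter, and both called lower were stress factors. These were Asns, Phgdh, Mthfd1l, Aars, Mars, Sars, Slc38a2, Cebpb and Sesn2. Among the lost calls, the log2 fold change went from 0.36 to 0.05 for Cars, from 0.48 to 0.11 for Iars, from 0.22 to -0.01 for Lars, from 0.60 to 0.34 for Yars, from 0.37 to 0.24 for Psph, from 0.34 to 0.19 for Atf5 and from 1.11 to 0.64 for Slc7a1. That of Phgdh went from 0.76 to 1.32. At an unadjusted p under 0.05, 4 of 9 enzymes were higher, and of the 13 synthetases 4 were higher and 1 lower. Beside these, 3968 of all 11150 genes in that fit were under 0.05 in either direction.

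With 2 libraries per group, each library weighed heavily on these counts. Without the efferocytic library of Experiment 1, in an edgeR fit without the block, 19 genes were called higher and 2 lower (11.5% and 8.86% of all genes). Without that of Experiment 2 the counts were 3 and 0 (4.44% and 4.04%), with 2 lower at an unadjusted p under 0.05. Without either of the non-efferocytic libraries 0 were called in either direction. The median log2 fold change of the 36 genes was 0.35 without that of Experiment 1 and 0.38 without that of Experiment 2. Over all genes it was -0.01 and -0.002 in these fits. Those fits called hardly any gene, 0 higher and 2 lower (0.0141%) of 14207 genes without that of Experiment 1 and 0 and 0 of 14036 without that of Experiment 2, so their counts say nothing about the 36 genes in particular. The lone library left in a group is assumed there to vary like the other group. With the experiment as a block, the p-values rest on how far the ratio of the groups differed between the 2 experiments. They also rest on a spread estimated with the help of all genes. Nothing in the labels says that the libraries of a group came from separate mice, so the p-values are not shown to cover the spread between mice.

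**Figure D1:**
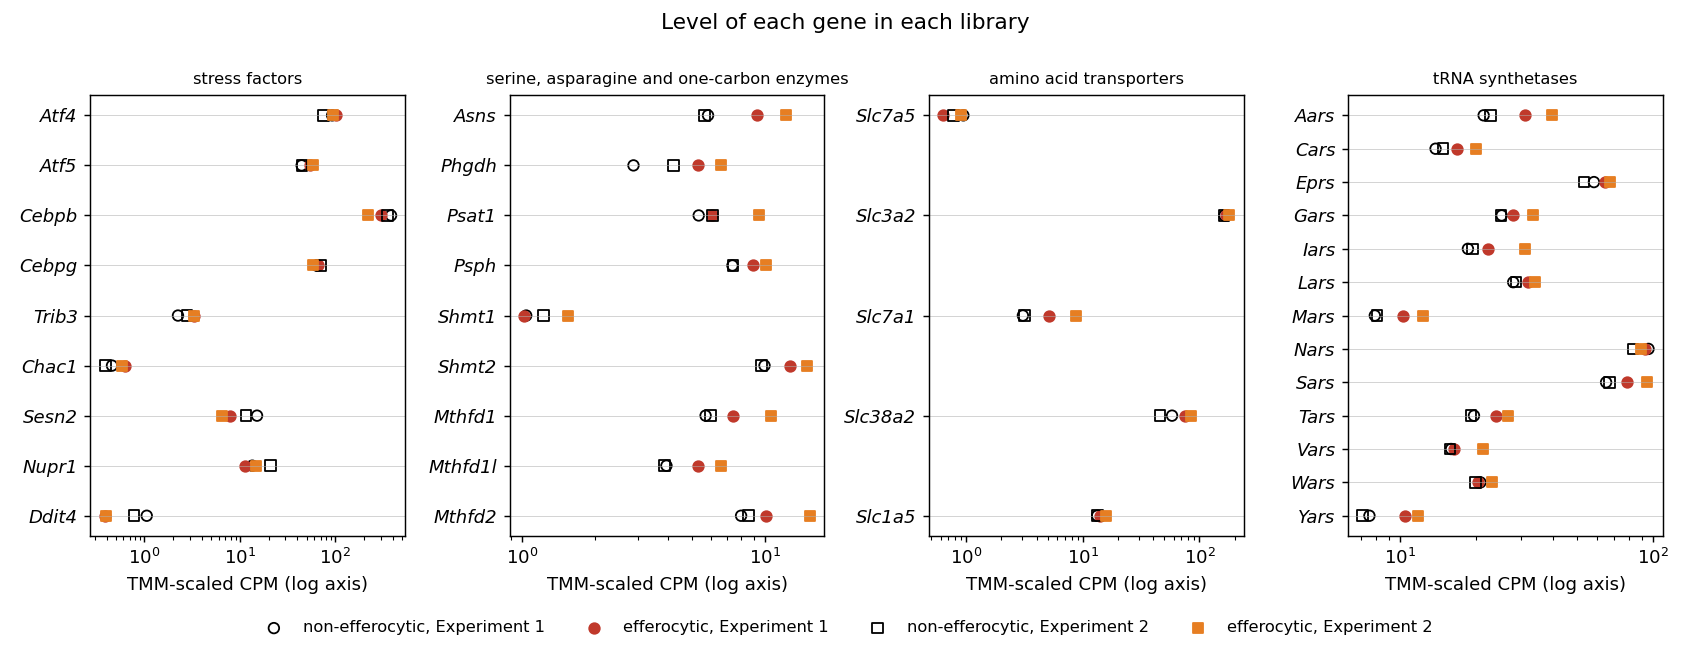
Level of each of the 36 genes in each library, in TMM-scaled CPM on a log axis, with 1 panel per role; open symbols are non-efferocytic and filled symbols efferocytic libraries, circles Experiment 1 and squares Experiment 2. The filled symbols lie to the right of the open ones for most enzymes and synthetases and to the left for Cebpb, Sesn2 and Ddit4.

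Levels are given below as CPM scaled by TMM, a normalization that keeps the bulk of genes level between libraries, first for Experiment 1 and then for Experiment 2, non-efferocytic before efferocytic. Atf4 itself (ENSMUSG00000042406, chr15:80255184-80257541, plus strand, mm10), which encodes the central transcription factor, stood at 92.7 and 102 in Experiment 1 and at 75.6 and 94.4 in Experiment 2. Both efferocytic libraries lay above both non-efferocytic ones, but the difference did not pass the test (log2 fold change 0.23, SE 0.0856, adjusted p = 0.0646). On plain CPM the direction in Experiment 1 was lost, at 96.3 and 95.8. Atf4 is also 1 of the genes that the study listed as higher in these same libraries, so its direction is not independent evidence.

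Atf5, a related transcription factor that ATF4 can induce, was the 1 stress factor that rose. Its level was 44.4 and 54.7 in Experiment 1 and 45.0 and 58.8 in Experiment 2, without overlap of the groups (log2 fold change 0.34, SE 0.0749, adjusted p = 0.00901). Trib3, a pseudokinase that restrains ATF4, was measured at 2.25 and 3.31 and at 2.80 and 3.32. Chac1, which degrades glutathione, was measured at 0.457 and 0.622 and at 0.390 and 0.586, from 48 to 90 UMIs per library. In both genes the efferocytic libraries were the higher ones, and neither passed the test (adjusted p = 0.0591 and 0.118).

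The 4 stress factors that fell were Cebpb, Sesn2, Nupr1 and Ddit4. Sesn2 (ENSMUSG00000028893, chr4:132492032-132510501, minus strand), a sestrin that senses leucine and restrains mTORC1, fell in both experiments, from 15.1 to 7.97 and from 11.6 to 6.56 (log2 fold change -0.87, SE 0.0947, adjusted p = 0.000469). Its annotation overlaps Gm12981 on the same strand, so reads in the shared stretch cannot be assigned with certainty. Ddit4 (REDD1), another inhibitor of mTORC1, went from 1.06 to 0.384 and from 0.774 to 0.397, a log2 fold change of -1.20 (SE 0.239, adjusted p = 0.00611) that rests on 45 to 111 UMIs per library. DESeq2 did not call it (adjusted p = 0.0666), and in cells without cycling list UMIs its log2 fold change was -0.24 (adjusted p = 0.7495). In barcodes with under 100 UMIs, which hold mostly free RNA, Ddit4 stood at 13.5 and 12.3 CPM in Experiment 1 and at 6.96 and 5.96 CPM in Experiment 2, above its level in cells in all 4 libraries. It was not tested in the fit with free RNA removed. In Experiment 2, 13 of its 111 UMIs in non-efferocytic and 12 of its 61 UMIs in efferocytic cells were in a cluster of 71 and 63 cells led by T cell receptor genes, at 109 and 116 CPM. Without the clusters of other cell types, this one included, its log2 fold change was -1.63 (adjusted p = 0.00212).

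Cebpb, a C/EBP partner of ATF4 and a regulator of myeloid inflammatory genes, had levels of 384 and 300.3 in Experiment 1 and 352 and 222 in Experiment 2 (log2 fold change -0.51, SE 0.111, adjusted p = 0.00887). Without the block the adjusted p of Cebpb was 0.0951. Nupr1, a small stress-induced nuclear protein, had 13.5 and 11.4 and then 21.0 and 14.7. Its groups overlapped across experiments, since the efferocytic library of Experiment 2 was above the non-efferocytic library of Experiment 1, and its call (log2 fold change -0.38, adjusted p = 0.0157) was lost without the block (0.282) and by DESeq2 (0.0542). Cebpg, which pairs with ATF4 on composite elements, lay at 63.4 and 66.1 and at 71.2 and 58.9, above in one experiment and below in the other, and did not pass the test (log2 fold change -0.11, adjusted p = 0.406).

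All 9 enzymes had a fitted log2 fold change above 0. Asns (ENSMUSG00000029752, chr6:7675169-7693254, minus strand), which makes asparagine from aspartate and glutamine, had the largest, with levels of 5.83 and 9.29 in Experiment 1 and 5.63 and 12.2 in Experiment 2 (log2 fold change 0.90, SE 0.127, adjusted p = 0.00147). The Asns groups did not overlap, and the gene was called in all 15 fits to 4 libraries in which it was tested. Phgdh (ENSMUSG00000053398, chr3:98313170-98339990, minus strand), the first enzyme of serine synthesis, rose from 2.87 to 5.29 and from 4.20 to 6.62 (log2 fold change 0.76, SE 0.123, adjusted p = 0.00251). In barcodes with under 100 UMIs the level in plain CPM was above that in cells in all 4 libraries for 13 of the 36 genes. This count is given without a share of all genes, so it does not set the 36 genes apart from others. The called genes among the 13 were Asns, Phgdh, Psph, Slc7a1, Mars, Nupr1 and Ddit4. Asns stood there at 7.65, 12.3, 10.7 and 15.8 CPM, in the order of the levels above. With 10% of free RNA removed, Asns had a log2 fold change of 0.91 (adjusted p = 0.0383).

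Phgdh has an annotated pseudogene, Phgdh-ps1, with which reads could be shared. In barcodes with under 100 UMIs it stood at 23.6, 25.2, 9.75 and 12.4 CPM in the same order, above its level in cells in all 4 libraries, and with 10% of free RNA removed its call was lost (log2 fold change 1.33, adjusted p = 0.0799).

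The later steps of serine synthesis were also called, and their difference from Phgdh was not tested. Psat1, the aminotransferase of the pathway, was at 5.34 and 6.06 and at 6.09 and 9.45. Its groups overlapped narrowly, and its call (log2 fold change 0.42, adjusted p = 0.0386) was lost by DESeq2 (0.109) and without the block (0.215). Psph, the phosphatase of the last step, was at 7.35 and 8.96 and at 7.38 and 10.1 (log2 fold change 0.37, adjusted p = 0.0235), with no overlap; DESeq2 gave an adjusted p of 0.1002.

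Serine is then split to glycine and a one-carbon unit by the SHMT enzymes. Shmt2, the mitochondrial form, rose from 9.97 to 12.6 and from 9.68 to 14.96 (log2 fold change 0.49, adjusted p = 0.00742). Shmt1, the cytosolic form, was at 1.04 and 1.02 and at 1.22 and 1.54, and did not pass the test (log2 fold change 0.17, SE 0.185, adjusted p = 0.505). The difference between the forms was not tested.

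The 3 MTHFD enzymes, which carry one-carbon units on folate, gave nearly equal fold changes. Mthfd2, the mitochondrial dehydrogenase-cyclohydrolase, rose from 7.98 to 10.1 and from 8.54 to 15.4, with a log2 fold change of 0.60 (SE 0.129, adjusted p = 0.00825). Mthfd1l, the mitochondrial formate-producing enzyme, rose from 3.93 to 5.30 and from 3.86 to 6.59, and Mthfd1, the cytosolic enzyme, from 5.70 to 7.36 and from 5.98 to 10.6, both with a log2 fold change of 0.61 (adjusted p = 0.00830 and 0.00881). In each of the 3 the groups did not overlap and the ratio was larger in Experiment 2 than in Experiment 1, a difference that was not tested.

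The transporters split. Slc7a1 (ENSMUSG00000041313, chr5:148327410-148399904, minus strand), the cationic amino acid transporter CAT1 that imports arginine and lysine, had the largest rise of the 36 genes, from 3.05 to 5.08 in Experiment 1 and from 3.15 to 8.66 in Experiment 2 (log2 fold change 1.11, SE 0.174, adjusted p = 0.00223). Slc38a2 (SNAT2), a sodium-coupled importer of neutral amino acids, rose from 58.2 to 75.5 and from 45.9 to 84.6 (log2 fold change 0.63, SE 0.118, adjusted p = 0.00473). Neither showed overlap between the groups. Slc7a1 stood at 8.70 and 10.2 CPM in the barcodes under 100 UMIs of Experiment 1 and at 5.01 and 9.11 CPM in those of Experiment 2. With 10% of free RNA removed its log2 fold change was 1.18 (adjusted p = 0.0361). In that edgeR fit the call of Slc38a2 was lost (adjusted p = 0.0536).

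The heterodimeric exchanger LAT1, made of Slc7a5 and Slc3a2, and the glutamine exchanger ASCT2 (Slc1a5) gave no call. Slc7a5 was at 0.942 and 0.631 and at 0.774 and 0.892, with opposite ratios in the experiments (log2 fold change -0.16, SE 0.244). Its interval for counting error in Experiment 2 ran from -0.17 to 0.58 around a log2 ratio of 0.21. Slc3a2, the shared heavy chain, was at 164 and 169 and at 162 and 180.5 (log2 fold change 0.10, adjusted p = 0.403), and Slc1a5 at 13.3 and 13.9 and at 13.4 and 15.7 (0.15, adjusted p = 0.196). On plain CPM both were lower in the efferocytic library of Experiment 1, Slc3a2 at 170.2 and 158.4 and Slc1a5 at 13.8 and 13.1, and higher in Experiment 2.

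tRNA synthetases attach each amino acid to its tRNA. Aars (ENSMUSG00000031960, chr8:111033144-111057664, plus strand), for alanine, had the largest rise of the 13, from 21.4 to 31.1 and from 22.8 to 39.8 (log2 fold change 0.67, SE 0.0894, adjusted p = 0.00111). It was called in all 16 fits to 4 libraries, and its annotation overlaps Exosc6 on the same strand. Yars, for tyrosine, rose from 7.56 to 10.5 and from 7.08 to 11.8 (log2 fold change 0.60, SE 0.107, adjusted p = 0.00368).

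A middle group followed with log2 fold changes between 0.36 and 0.49. Mars, for methionine (0.49), rose from 7.94 to 10.3 and from 8.10 to 12.3, and Iars, for isoleucine (0.48), from 18.5 to 22.2 and from 19.3 to 31.1. Tars for threonine (0.39), Sars for serine (0.38) and Cars for cysteine (0.36) also rose, with adjusted p between 0.00955 and 0.0131. In all 5 the groups did not overlap.

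Smaller rises were called for Gars, for glycine (0.29, adjusted p = 0.0342), Eprs, for glutamate and proline (0.24, adjusted p = 0.0480), and Lars, for leucine (0.22, adjusted p = 0.0481). DESeq2 called none of these last 3, with adjusted p of 0.0946, 0.116 and 0.192. On plain CPM Eprs was level in Experiment 1, at 60.5 in both libraries, and higher in efferocytic cells in Experiment 2. On that scale Gars was at 26.14 and 26.29 and Lars at 29.05 and 30.12 in Experiment 1, both nearly level. Both were higher in efferocytic cells in Experiment 2. Vars, for valine, was at 15.9 and 16.4 and at 15.7 and 21.3 and did not pass the test (0.24, adjusted p = 0.105); on plain CPM its direction in Experiment 1 was lost, at 16.5 and 15.4. Wars, for tryptophan, was at 20.8 and 20.2 and at 19.8 and 23.1, and Nars, for asparagine, at 95.7 and 92.9 and at 83.1 and 89.5. Both overlapped between groups, with log2 fold changes of 0.09 and 0.03 (adjusted p = 0.445 and 0.785).

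**Figure D2:**
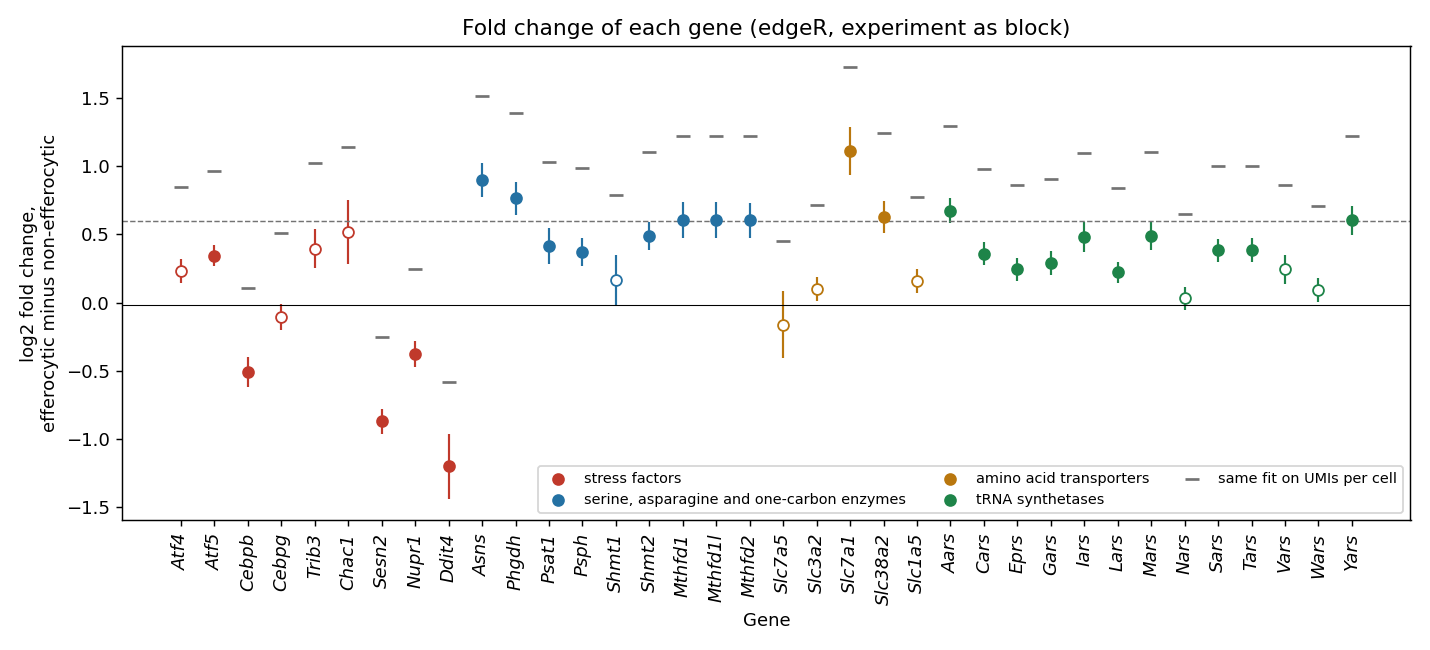
Log2 fold change of each gene, efferocytic minus non-efferocytic, with its SE as bars, from edgeR with the experiment as a block; filled points passed an adjusted p of 0.05 and open points did not. Grey dashes are the same fit on UMIs per cell, and the solid and dashed lines are the medians over all genes in the 2 fits, at -0.02 and 0.60; 4 stress factors lie below the solid line with filled points, and no enzyme, transporter or synthetase does.

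The 4 falling genes were called on the TMM scale and not per cell. Counted per cell, the median of all genes rose by 0.60 on the log2 scale. Shallow barcodes count as cells in this fit, and it was not repeated on a stricter choice of cells. On that scale 30 of the 36 genes were called higher and 0 lower, beside 49.9% and 4.23% of all genes, and no gene of the 36 had an unadjusted p under 0.05 for a lower value. The median of the 36 lay 0.38 above that of all genes on the per-cell scale, as on the TMM scale. Cebpb then had 4875 and 5261 UMIs per 1000 cells in Experiment 1 and 3767 and 4050 in Experiment 2, a log2 fold change of 0.11 that did not pass the test (adjusted p = 0.616) and lay 0.49 below the median gene. Sesn2 had 192 and 139.7, and 123.9 and 119.8 UMIs per 1000 cells (log2 fold change -0.25, adjusted p = 0.420). Nupr1 had a per-cell log2 fold change of 0.24 (adjusted p = 0.429). Ddit4 kept a lower fitted value, with 13.4 and 6.72, and 8.28 and 7.26 UMIs per 1000 cells, and did not pass the test (log2 fold change -0.58, adjusted p = 0.121). Asns had 74.0 and 163, and 60.2 and 222.5 UMIs per 1000 cells (log2 fold change 1.52, adjusted p = 1.7e-06). With library totals in place of TMM, which put the median of all genes at -0.12, 14 genes were called higher and 4 lower, beside 13.3% and 26.7% of all genes, and the median of the 36 again lay 0.38 above that of all genes.

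Within Experiment 1, 28 of the 36 ratios of efferocytic to non-efferocytic were above 0 on the log2 scale, and within Experiment 2, 31 were. On plain CPM the counts were 22 and 31, and both efferocytic libraries lay above both non-efferocytic ones in 21 genes and below in 4. These counts are given without a share of all genes. Such a share is given only for non-overlap on the TMM scale, at 33.7% above and 34.8% below. Genes in general sit lower on the plain scale, with an all-gene median of -0.12 for library totals against -0.02 for TMM. Over the 36 genes the median log2 ratio on the TMM scale was 0.27 in Experiment 1 and 0.44 in Experiment 2. It was 0.34 and 0.66 for the enzymes, 0.26 and 0.44 for the synthetases, 0.07 and 0.24 for the transporters, and 0.06 and -0.27 for the stress factors. Each experiment has 1 library per group, so no test was made within it.

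**Figure D3:**
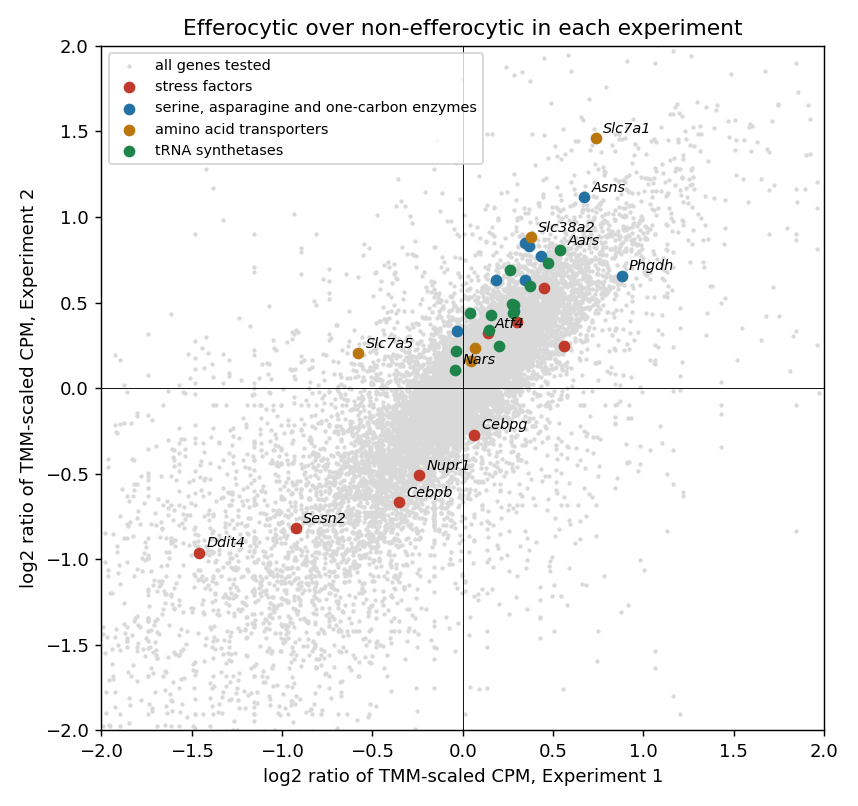
Log2 ratio of efferocytic over non-efferocytic TMM-scaled CPM in Experiment 1 (x axis) and Experiment 2 (y axis), for all genes tested in grey and the 36 genes in the color of their role; 622 genes outside the axes are not drawn. Most of the colored points lie in the upper right, the 4 falling stress factors lie in the lower left, and Cebpg, Nars, Slc7a5, Shmt1 and Wars have opposite signs in the experiments.

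The genes were also uneven among cells. Each experiment was clustered without the 36 genes and without the other pathway genes named below, and the cluster with the highest summed level of the 9 enzymes was then taken. It was chosen for that sum, so its levels are a description with no test. In both experiments it was led by Prss46, Asns, Slpi, Ero1l, Plaur, Procr and Col18a1 among its 10 leading genes. It held 157 of the non-efferocytic cells (1.90%, exact 95% interval 1.61 to 2.21%) and 357 of the efferocytic cells (5.33%, 4.81 to 5.90%) in Experiment 1. In Experiment 2 it held 193 (1.44%, 1.24 to 1.66%) and 332 (3.95%, 3.54 to 4.39%). The share was higher in efferocytic BM macrophages in both experiments, and the intervals cover counting error only. Its macrophage marker sum was 23769 and 20261 CPM and its neutrophil sum 25.8 and 32.4 CPM. The RM1 list, which does not measure RM1 mRNA here, summed to 2.21 and 7.99 CPM.

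In this cluster the stress factors that rose and those that fell between libraries were high together. All 9 stress factors, all 5 transporters, 12 of 13 synthetases and 7 of 9 enzymes were above the other cells of the same library in all 4 libraries. No share of all genes was counted for this comparison, so these counts are not shown to be particular to the genes described here. Shmt1 and Mthfd1, both cytosolic folate enzymes, were below in all 4. For Shmt1 this rests on 1, 3, 1 and 3 UMIs in the cluster, too few for a size, and for Mthfd1, which was 0.50 to 0.75 lower on the log2 scale, on 11 to 42 UMIs. Vars was above in 2 and below in 2. The value of Ddit4 rests on 12, 7, 5 and 6 UMIs in the cluster and that of Slc7a5 on 10, 18, 12 and 23. The other cells were pooled, and single clusters among them came near this one or above it. In efferocytic cells of Experiment 2 the transporters summed to 624 CPM in another cluster and to 584.2 here. That other cluster was shallow, with 86 efferocytic barcodes and a median of 1549.5 UMIs over both groups. In non-efferocytic cells of Experiment 1 the synthetases summed to 717.4 CPM in another cluster and to 781.2 here. Chac1 was the most concentrated, 4.79 to 6.58 higher on the log2 scale, and 53.3 to 83.6% of all its UMIs were in the cluster. Trib3 was 4.05 to 5.03 higher and had 26.6 to 64.4% of its UMIs there, Asns 3.103 to 4.49 higher with 26.2 to 45.9%, and Phgdh 3.75 to 4.47 higher with 24.1 to 56.5%. Mthfd2 (2.78 to 3.82) and Atf5 (2.71 to 3.30) followed. Slc7a1 was 1.64 to 2.88 higher, Slc7a5 2.00 to 2.47, Cebpb 1.88 to 2.24, Atf4 1.81 to 2.11 and Sesn2 0.89 to 2.18. The median over genes was 1.95 for the stress factors, 1.59 for the transporters, 0.87 for the synthetases and 0.85 for the enzymes, whose members ran from Asns and Phgdh to Shmt1 and Mthfd1.

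**Figure D4:**
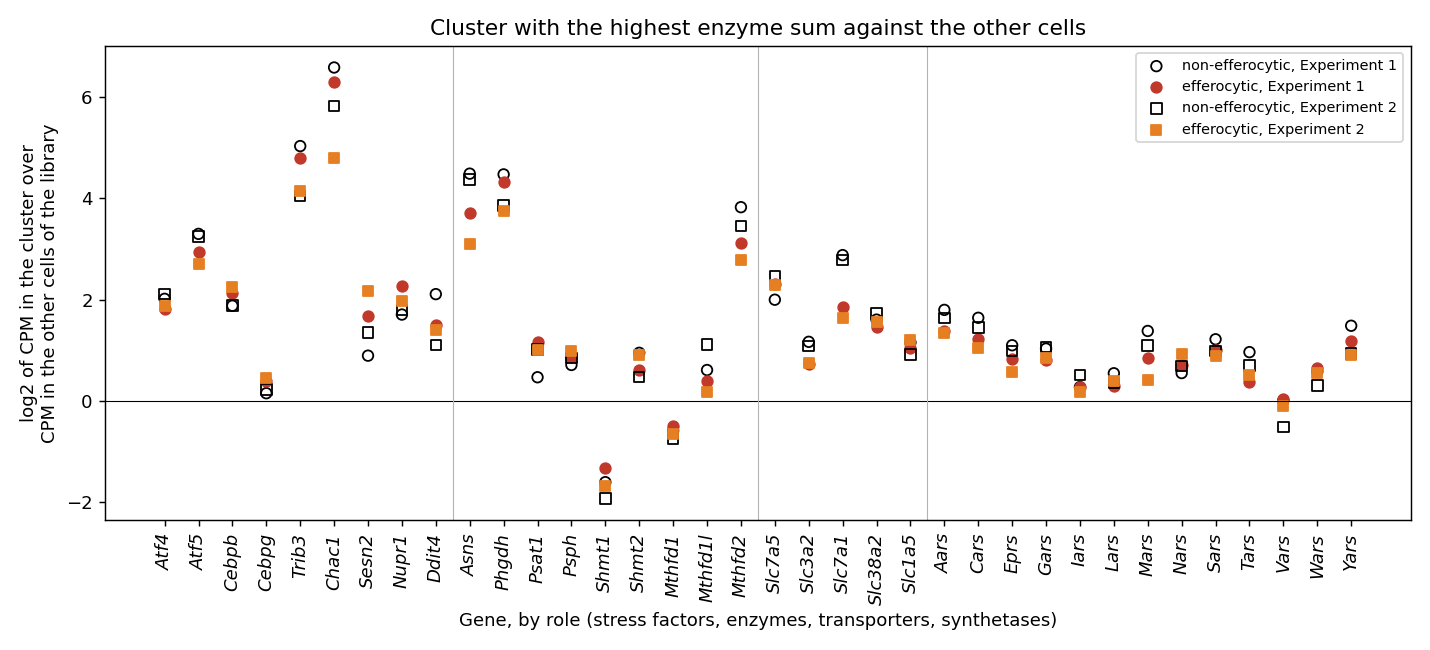
Log2 of each gene's CPM in the cluster with the highest enzyme sum over its CPM in the other cells of the same library; symbols are libraries as in the plot of levels. Chac1, Trib3, Asns and Phgdh stand highest, and only Shmt1 and Mthfd1 are below 0 in all 4 libraries.

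This cluster was then left out of both groups. It was picked for the enzymes and held a larger share of the efferocytic cells. Leaving it out thus tends to lower the fold change of genes concentrated in it. The changes below are a description, not a test of what the cluster carried. Without it 16 genes were called higher and 4 lower (19.2% and 18.4% of all genes), and the calls of Atf5, Psat1, Gars, Eprs and Lars were lost (adjusted p between 0.0514 and 0.0856). The log2 fold changes moved little for Gars (0.29 to 0.27), Eprs (0.24 to 0.23) and Lars (0.22 and 0.22), whose adjusted p had been near the threshold, and further for Atf5 (0.34 to 0.23) and Psat1 (0.42 to 0.36). The log2 fold change of Trib3 went from 0.40 to -0.01 and that of Phgdh from 0.76 to 0.44 (adjusted p = 0.0377), while that of Asns was 0.91 (adjusted p = 0.00685) and that of Aars was 0.64 (adjusted p = 0.00255). Without clusters rich in neutrophil, RM1 or lymphocyte markers, 19 were called higher and 3 lower (19.5% and 18.9%). Both exclusions were added after the data had been seen.

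Within clusters the summed roles were compared on the TMM scale of the whole libraries, with the count on plain CPM in parentheses. In the 9 clusters of each experiment that held at least 50 cells of both groups, the summed stress factors were higher in efferocytic cells in 1 cluster (0) of Experiment 1 and 1 (1) of Experiment 2. The summed enzymes were higher in 6 (2) and 8 (7) clusters, the transporters in 5 (3) and 6 (5), and the synthetases in 3 (1) and 6 (6). The counts of Experiment 1 thus depend on the scale. In Experiment 2 the 1 cluster with higher stress factors was a shallow one, with a median of 1549.5 UMIs. The 9 of Experiment 2 include a cluster led by Trbc2, Cd3d and Cd3g, genes of the T cell receptor complex, in which the lymphocyte sum (1598 CPM) was above the macrophage sum (1262 CPM). Among the other 8 the counts of Experiment 2 were 1 (1) for the stress factors, 7 (6) for the enzymes, 5 (4) for the transporters and 6 (6) for the synthetases. Some sums are mostly 1 gene: in the non-efferocytic library of Experiment 1, Cebpb made up 384 of the 617 CPM of the stress factors and Slc3a2 made up 164 of the 239 CPM of the transporters. By gene, Slc38a2 was higher in 9 (7) and 8 (7) clusters, Aars in 6 (4) and 8 (8), Asns in 3 (3) and 4 (4), Cebpb in 2 (1) and 0 (0) and Sesn2 in 1 (1) and 0 (0).

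In the cluster of mitotic cells, led by Cenpf, the enzymes summed to 85.9 TMM-scaled CPM in non-efferocytic and 159 in efferocytic cells of Experiment 1, and to 68.6 and 137.7 in Experiment 2. In the cluster highest in the enzymes they summed to 253.8 and 238 in Experiment 1 and to 256.6 and 305.3 in Experiment 2. The groups filled the clusters unequally: the largest cluster held 54.3% of efferocytic and 2.81% of non-efferocytic cells in Experiment 1, and 54.9% and 0.790% in Experiment 2. In Experiment 2 another cluster with a high cycling sum (1826 CPM, against 1976 CPM in the mitotic cluster) was led by Hist1h2ap, Hist1h1b and Uhrf1. It held 366 efferocytic (4.35%) and 36 non-efferocytic cells (0.268%), while the mitotic cluster held 2.70% and 1.92%. Its non-efferocytic cells were too few for the counts within clusters given above. The part of this cluster in the differences between libraries was not tested. All these values are from 1 library per group and experiment, without a test.

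**Figure D5:**
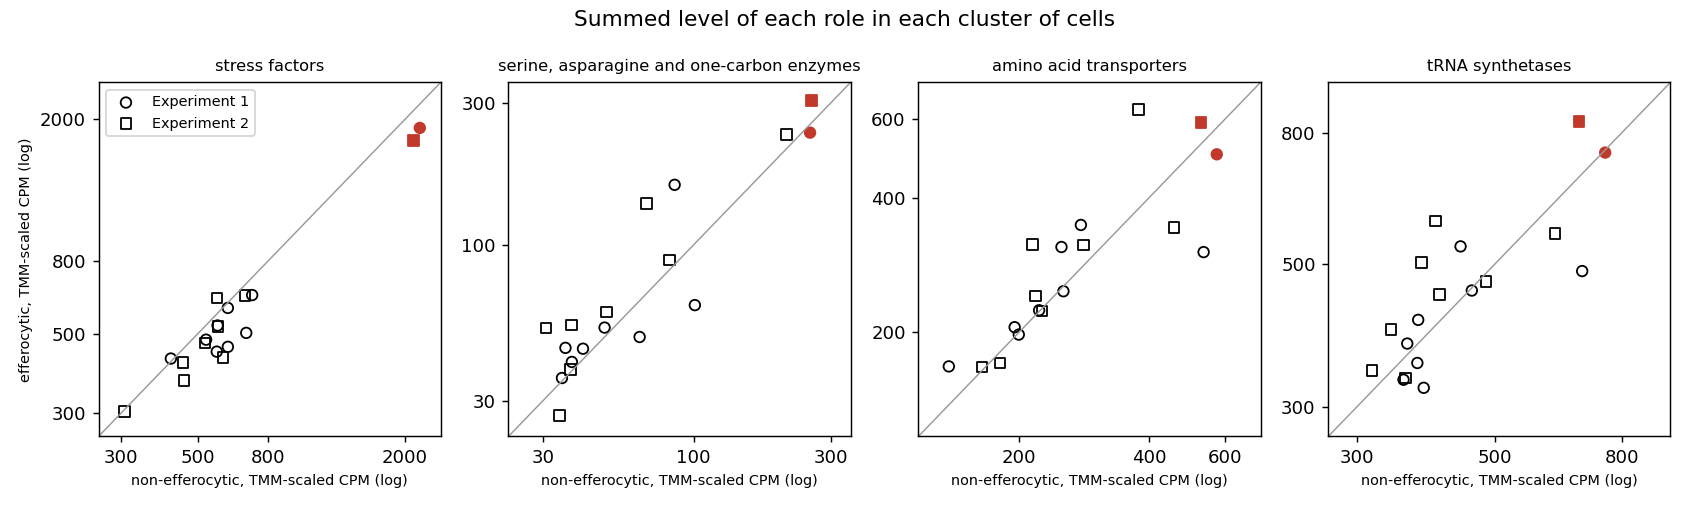
Summed TMM-scaled CPM of each role in non-efferocytic (x axis) and efferocytic cells (y axis) of each cluster with at least 50 cells of both groups, on log axes; circles are Experiment 1, squares Experiment 2, the grey line marks equal values, and red marks the cluster with the highest enzyme sum. The stress factors lie above the line in 1 of 9 clusters of each experiment and the enzymes in 6 of Experiment 1 and 8 of Experiment 2; on plain CPM the enzymes are above in 2 and 7.

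Other genes of the same pathways were read from lists, whose counts stand beside 19.9% of all genes called higher and 19.0% called lower in the same fit. No list was tested against other genes. Of 11 other cytosolic synthetases and their cofactors, 8 rose and 3 did not pass the test (median log2 fold change 0.52). Rars, for arginine, rose from 31.1 to 45.7 and from 29.8 to 61.6 (log2 fold change 0.81, adjusted p = 0.00151), and Eef1e1, a scaffold protein of the synthetase complex, from 17.9 to 29.7 and from 24.7 to 40.7 (0.73, adjusted p = 0.000395). Hars, for histidine, rose from 27.5 to 35.3 and from 27.7 to 42.1 (0.49, adjusted p = 0.00370), and Dars, for aspartate, from 34.2 to 40.8 and from 36.3 to 49.3 (0.35, adjusted p = 0.0115). Of 17 mitochondrial synthetases 6 rose and 11 did not pass the test (median 0.27), Nars2 (0.66) and Mars2 (0.60) by the most. Rars2 rose from 9.78 to 10.9 and from 9.66 to 13.3 (0.31, adjusted p = 0.0456), and Cars2 from 10.1 to 11.8 and from 10.2 to 12.7 (0.27, adjusted p = 0.0492).

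Of 17 other ATF4 targets 4 rose and 4 fell, each 4 of 17 being a share near that of all genes (19.9% and 19.0%), with a median of -0.10. Their difference from the enzymes was not tested. Aldh18a1, for proline synthesis, and Gpt2, an alanine aminotransferase, rose with log2 fold changes of 0.79 and 0.73 (adjusted p = 0.00366 and 0.00134). Pck2, the mitochondrial PEP carboxykinase, fell from 30.3 to 20.03 and from 26.8 to 14.6 (log2 fold change -0.74, adjusted p = 0.000879), and Ppp1r15a (GADD34), which directs the phosphatase that reverses eIF2 phosphorylation, fell from 45.3 to 26.0 and from 25.1 to 19.1 (-0.60, adjusted p = 0.00350). Per cell neither passed the test, with log2 fold changes of -0.12 for Pck2 and 0.02 for Ppp1r15a.

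Of 15 genes for eIF2, its kinases, phosphatases and exchange factor, 4 rose and 2 fell (median 0.21), beside the same 19.9% and 19.0%. Impact, an inhibitor of GCN2, rose from 21.7 to 37.4 and from 24.7 to 38.8 (log2 fold change 0.72, adjusted p = 0.000488). Eif2s1, the subunit that is phosphorylated, rose by 0.41 on the log2 scale (adjusted p = 0.00587) and is also among the genes that the study listed as higher in these libraries. Eif2ak1, the heme-regulated kinase, fell by 0.24 on the log2 scale (adjusted p = 0.0388), while per cell its log2 fold change was 0.38 and did not pass the test. Ppp1r15a, given above, is the other gene of this list that fell.

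Of 17 other folate and glycine cleavage genes 6 rose and 2 fell (median 0.24), again beside 19.9% and 19.0% of all genes. Sfxn1, which carries serine into mitochondria, rose from 19.8 to 33.9 and from 22.0 to 47.1 (log2 fold change 0.94, adjusted p = 0.000347), and Aldh1l1, the cytosolic formyltetrahydrofolate dehydrogenase, fell from 7.17 to 4.14 and from 7.78 to 4.42 (-0.80, adjusted p = 0.00124), with a per-cell log2 fold change of -0.18 that did not pass the test. Fpgs, which adds glutamates to folates, rose from 2.83 to 3.61 and from 3.49 to 5.16 (0.46, adjusted p = 0.0242). Mtr, methionine synthase, fell from 15.3 to 10.6 and from 14.5 to 12.6 (-0.36, adjusted p = 0.0267), while per cell its log2 fold change was 0.26 and did not pass the test.

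Of 23 genes for amino acid sensing by mTORC1 7 rose and 2 fell (median 0.21), beside 19.9% and 19.0% of all genes. The 2 that fell were the other sestrins of the list, Sesn1 (log2 fold change -0.62, adjusted p = 0.000814) and Sesn3 (-0.60, adjusted p = 0.00884), so that with Sesn2 all 3 sestrins fell on the TMM scale. Per cell their log2 fold changes were 0.00, 0.03 and -0.25, in the order Sesn1, Sesn3, Sesn2. Rragd, a Rag GTPase, and Lamtor3, a Ragulator subunit, rose by 0.90 and 0.70 on the log2 scale (adjusted p = 0.000244 and 0.000906).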

How the data were processed

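Single-cell RNA sequencing libraries (10X Genomics 3′ chemistry v3.1) of sorted BM macrophages were read as deposited: the authors mapped reads to mm10 with Cell Ranger (3.0.0 in the methods and the headers of Experiment 1, 3.1.0 in the headers of Experiment 2) and what they deposited are unnormalized UMI counts for every gene in every barcode, without a selection of cells. A barcode was kept as a cell if it had 200 genes or more, 1000 UMIs or more and no more than 10% mitochondrial UMIs. No doublet caller was run, so doublets were kept. The authors' integration and tests on cells were not repeated.

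Kept cells were pooled by library, and the summed UMI counts were tested across 13869 genes with edgeR 4.0.16 in R 4.3.3 (quasi-likelihood test, TMM, filterByExpr), with the experiment as a block, Benjamini-Hochberg adjustment over all genes and a threshold of 0.05. SEs were taken as the absolute log2 fold change over the root of the F statistic. The block follows the labels, in which the experiment is shared by 1 library of each group. Libraries of an experiment deviated together from their group means (correlation 0.787 across 7097 genes, which are not replicates). DESeq2 1.42.0, other scalings, filters and cell choices were alternatives. The fit was tested on simulated data, where small changes were recovered less often than large ones; the first limit set on recovery was not met and was replaced, with the fit unchanged. A gene that did not pass the test is therefore not shown to be unchanged. Printed levels are TMM-scaled CPM, where plain CPM had been planned; this was changed after plain values had been seen, so that levels and fold changes share a scale, and plain CPM is given where it turns a direction.

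At these depths a count of 0 in a library allows up to 0.0193 to 0.0296 CPM; intervals and this limit cover counting error only. Clusters were made per experiment by Leiden clustering (leidenalg 0.10.2, resolution 0.5) on 20 principal components of 5000 variable genes. Positions are those of GENCODE vM21 (GRCm38, mm10), and promoter sequences are from RefSeq (GRCm38.p6). All 36 genes are named, and of each other list the 2 largest and 2 smallest log2 fold changes among called genes whose mean reached 1 CPM. The 3 symbols Castor1, Castor2 and Gcn1 matched no row by symbol; Gcn1l1 did. The genes, lists and tests were chosen with earlier results of these data known.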

Additional observations from a re-analysis of the deposited data

Results flagged for a closer look

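In 2 genes the experiments gave opposite directions, each with an interval for counting error that leaves out 0; the difference was not tested, since each experiment has 1 library per group. The log2 ratio of efferocytic over non-efferocytic TMM-scaled CPM of Cebpg was 0.06 in Experiment 1 (95% counting interval 0.01 to 0.11) and -0.27 in Experiment 2 (-0.31 to -0.23). On plain CPM it was -0.09 and -0.34, so the opposite direction of Cebpg is lost on that scale. For Nars the log2 ratio was -0.04 in Experiment 1 (-0.08 to -0.0044) and 0.11 in Experiment 2 (0.07 to 0.14), and on plain CPM -0.19 and 0.04.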

How the results depend on the processing

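Over the 36 genes and all alternatives, 466 results kept direction and side of the threshold, 164 lost a call, 14 gained one and 23 changed sign. Members called higher were 21 in the fit as reported, and members called lower 4. Without the replicate block, which pairs the libraries of an experiment, they were 8 and 2. With a mean of at least 10 CPM, which left 22 genes, 9 were higher (20.8% of all genes). Cells without a cycling list UMI, which are fewer (959 and 825 in the efferocytic libraries), gave 7 and 2. With 10% free RNA removed 4 were higher (10.5% of all genes). DESeq2 called 2 lower and UMIs per cell 0. Leaving out 1 library gave 0 to 19 higher (3 without the efferocytic library of Experiment 2) and 0 to 2 lower. The other pathway genes, 35 higher and 9 lower, moved to 15 and 5 without the block (9.27% and 7.74% of all genes), 20 and 17 with library totals (13.3% and 26.7%), 69 and 0 per cell (49.9% and 4.23%), and 0 to 27 and 0 to 4 with 1 library left out. Of 98 tested DESeq2 gave 5 lower (10.2% of all genes), of 59 the 10 CPM minimum 18 higher (20.8%), of 90 cells without a cycling list UMI 14 higher (12.1%) and of 96 free RNA removal 16 higher (10.5%).
Changes of sign were as follows, in log2 fold change. Per cell, Cebpb was 0.11, Cebpg 0.51, Nupr1 0.24 and Slc7a5 0.45. Slc7a5 was 0.43 thinned to 5000 UMIs per cell, 0.0513 in cells without RM1 list UMIs, 0.10 without clusters of other cell types and 0.0657 without the efferocytic library of Experiment 1. With library totals Slc3a2 was -0.00766, Nars -0.0756 and Wars -0.0148. With the 10 CPM minimum Nars was -0.0639 and Wars -0.00324. In cells without a cycling list UMI Lars was -0.00621, Nars -0.0724, Vars -0.0696 and Wars -0.28. Nars was also -0.0098 thinned, -0.00194 without the cluster highest in the enzymes, -0.00617 without clusters of other cell types and -0.065 without the non-efferocytic library of Experiment 2. Trib3 was -0.0141 without the cluster highest in the enzymes, and Shmt1 -0.15 without the efferocytic library of Experiment 2. Apart from lost cells and genes, the cause was not tested. Chac1, Ddit4 and Slc7a5 rest on under 150 UMIs per library.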
